A study of Homo sapiens with 19 samples.

Results

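Kinetochores, the mitotic spindle and the cytokinetic ring are built from a set of proteins that dividing cells make mainly before and during mitosis. The 42 genes described here encode such proteins and were taken by symbol from a fixed list of names. All 42 are listed once in each of the 3 expression tables of the study, among 19021 genes in the culture table, 26955 in the siSCIRT table and 28870 in the siEZH2 table. They comprise 11 genes of the inner kinetochore, 3 for loading the centromeric histone, 16 of the outer kinetochore, 4 for cohesion protection and the chromosomal passenger complex, and 8 of the spindle and cytokinesis. Every one of the 42 passed the filter on low values in every table, and none was at 0 reads in any of the 19 libraries.

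All libraries were RNA-seq of MDA-MB-231, an established mesenchymal-like line of triple-negative breast cancer. The culture table compares adherent cells, grown in DMEM with fetal calf serum, with mammospheres collected after 16 h or 5 d (2 libraries each). Mammospheres are suspension cultures that are used to enrich for stem-like cells. They were kept on non-adherent plates, in DMEM/F12 supplemented with B27 and the growth factors EGF and FGF, so attachment, medium and serum changed together and cannot be told apart. The siSCIRT table holds spheres 48 h after transfection with a control siRNA (siNC), with siSCIRT 1 or with siSCIRT 2 (3 libraries each), both directed at the long noncoding RNA SCIRT. The siEZH2 table holds spheres 48 h after siNC or after siEZH2, against the histone methyltransferase EZH2 (2 libraries each). The labels do not say whether libraries of a group came from separate cultures, so the p-values take in no spread but that between these particular libraries. The test also shares that spread across genes of similar level, so an SE does not rest on a gene's own libraries alone. Between libraries of a group, chi-square per gene, which grows with depth, was 2.03 to 2.08 in the culture table. It was 5.19 to 26.7 in the siSCIRT table and 15.1 to 15.3 in the siEZH2 table, and p-values are best not compared across tables. In RNA from whole cultures, fewer dividing cells and less of a transcript per dividing cell cannot be told apart.

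The inner kinetochore, or constitutive centromere-associated network, sits on nucleosomes that carry the histone variant CENPA. It holds the outer kinetochore, whose NDC80 complex grips microtubule ends. Shugoshins protect the cohesion of sister chromatids, and the chromosomal passenger complex corrects faulty attachments. Many of these genes are transcribed late in the cell cycle through a promoter element called the cell cycle genes homology region (CHR), bound by the DREAM complex in resting cells and by MYBL2 and FOXM1 in dividing ones, often with CCAAT boxes bound by NF-Y nearby.

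Promoters are shown because these elements are read in them. Whether a motif bears on a gene's response was not tested. RefSeq windows from 250 bases before to 50 bases after an annotated start (GRCh38.p14) were at hand for 35 of the 42 genes. They were searched on both strands for TTTGAA, the core of a common CHR form, and for CCAAT. The 2 motifs can share a base. The following are the 150 bases before the start of 6 genes with TTTGAA within 50 bases upstream, then of CENPT and NSL1, 2 of the 6 genes with neither motif in the window. Those 2 were called in neither siRNA experiment, whereas 3 of the 6, CENPE, CENPI and DSN1, fell with siSCIRT and rose with siEZH2, and CKAP2 fell with siSCIRT. Each is written 5′ to 3′ on the gene's own strand, with both motifs (or their reverse complements TTCAAA and ATTGG) in capitals. The stretches are CENPA (chr2:26785906-26786055, plus strand), CDCA8 (chr1:37692366-37692515, plus), INCENP (chr11:62123861-62124010, plus), HMMR (chr5:163460482-163460631, plus), PRC1 (chr15:90994536-90994685, minus), ANLN (chr7:36389712-36389861, plus), CENPT (chr16:67847694-67847843, minus) and NSL1 (chr1:212791778-212791927, minus).

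CENPA: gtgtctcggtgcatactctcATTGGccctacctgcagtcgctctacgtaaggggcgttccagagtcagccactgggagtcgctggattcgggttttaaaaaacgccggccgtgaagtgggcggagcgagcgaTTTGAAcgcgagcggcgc

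CDCA8: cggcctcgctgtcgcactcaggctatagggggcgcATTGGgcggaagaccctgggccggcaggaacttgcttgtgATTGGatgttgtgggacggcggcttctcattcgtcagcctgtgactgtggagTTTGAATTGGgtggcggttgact

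INCENP: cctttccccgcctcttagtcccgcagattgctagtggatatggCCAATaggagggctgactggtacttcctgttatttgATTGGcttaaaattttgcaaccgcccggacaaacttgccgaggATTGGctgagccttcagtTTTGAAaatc

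HMMR: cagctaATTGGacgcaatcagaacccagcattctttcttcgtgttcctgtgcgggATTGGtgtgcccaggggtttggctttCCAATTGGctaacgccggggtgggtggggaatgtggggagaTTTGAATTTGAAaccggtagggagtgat

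PRC1: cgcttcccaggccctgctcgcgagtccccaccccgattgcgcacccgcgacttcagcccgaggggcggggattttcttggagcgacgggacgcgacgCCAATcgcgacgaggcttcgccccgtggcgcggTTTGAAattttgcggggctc

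ANLN: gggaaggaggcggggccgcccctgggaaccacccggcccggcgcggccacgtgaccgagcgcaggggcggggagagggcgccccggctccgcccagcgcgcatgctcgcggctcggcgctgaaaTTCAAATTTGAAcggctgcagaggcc

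CENPT: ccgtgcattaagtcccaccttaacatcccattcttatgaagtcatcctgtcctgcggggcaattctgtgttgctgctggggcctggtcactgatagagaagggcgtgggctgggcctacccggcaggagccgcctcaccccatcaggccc

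NSL1: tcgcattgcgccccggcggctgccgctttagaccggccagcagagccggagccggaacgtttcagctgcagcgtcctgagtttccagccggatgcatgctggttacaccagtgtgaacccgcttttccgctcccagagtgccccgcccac

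In CENPA, CDCA8, INCENP, HMMR, PRC1 and ANLN the first base of the hexamer lies at positions -28 to -10 from the start. HMMR holds 2 copies in tandem, and ANLN holds 1 on each strand, back to back. In CDCA8 the hexamer and an ATTGG share a base. Of the 35 genes with a window, 19 (54.3%) held TTTGAA, against 18.2% of 27305 genes with a window. CCAAT was found in 23 of the 35 (65.7%), against 39.7% of all, and both motifs in 13 (37.1%), against 8.37%. Within 50 bases upstream, TTTGAA occurred in 7 members (20%), against 2.88% of all genes. By role, the hexamer was found in 6 of 7 spindle and cytokinesis genes with a window, 7 of 14 outer kinetochore genes and 3 of 8 inner kinetochore genes. A match describes letters, not a bound site, and a window without a match says nothing of the factor.

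**Figure D1:**
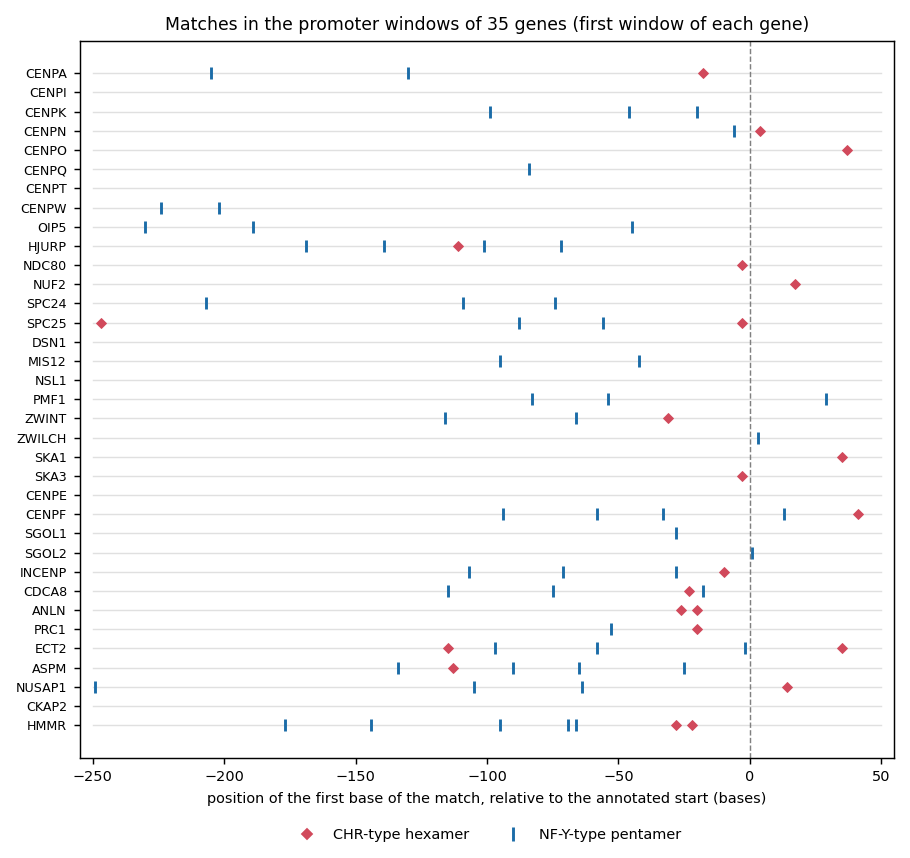
Positions of motif matches (first base, in bases from the annotated start) in the RefSeq window of each of 35 genes. Red diamonds mark TTTGAA and blue bars CCAAT, on either strand. Most CCAAT matches lie upstream of the start and the hexamers gather around it, while 6 genes (CENPE, CENPI, CENPT, CKAP2, DSN1 and NSL1) have no match.

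The summed reads of the 42 genes show the main pattern. As RPM (reads per 1000000 reads of the library), they came to 1378 and 1353 for adherent cells, 689 and 661 for spheres at 16 h, and 906 and 877 for spheres at 5 d. In the siSCIRT table the sums were 1737, 1590.2 and 1954 in controls, 1057, 1120.3 and 1139 under siSCIRT 1, and 1138, 1232 and 1145 under siSCIRT 2. In the siEZH2 table they were 423 and 383 with siNC, and 625 and 504 with siEZH2. Sphere libraries were thus below adherent ones, siSCIRT libraries below their controls and siEZH2 libraries above theirs, with no overlap between the groups compared.

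**Figure D2:**
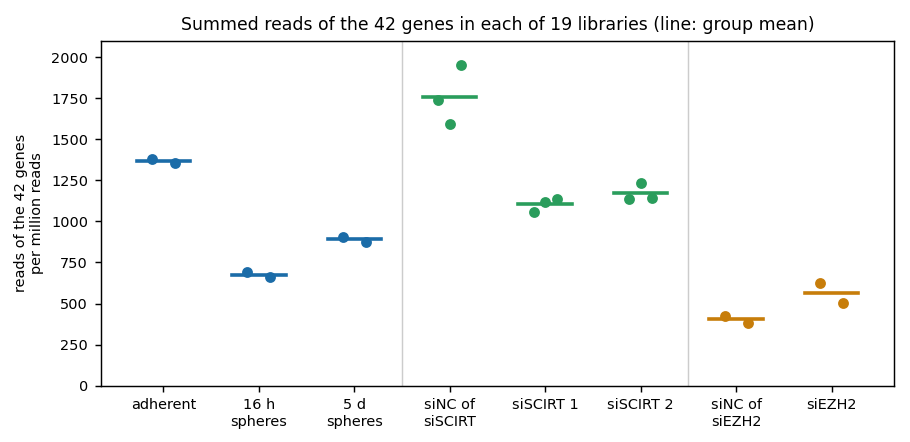
Sum over the 42 genes in RPM (vertical axis) in each of 19 libraries (points), by group, with the group mean as a line. The sums are lower in spheres than in adherent cells and lower with either siSCIRT than with siNC, but higher with siEZH2 than with its siNC, and the 2 sets of siNC spheres lie far apart (1590.2 to 1954 against 383 and 423).

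The 2 sets of controls carry the same labels, siNC spheres at 48 h, but differ in these genes. In RPM, 41 of the 42 were higher in the controls of siSCIRT than in those of siEZH2, by a median factor of 6.14. The factor ran from 0.918 for NSL1 to 18.7 for SPC25, and its median over 15369 genes was 1.02. The tables were normalized separately and the labels name no batch, so this is a description, and each siRNA was compared with its own controls only.

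Library depth was 6104222 to 14781941 reads in the culture table, 38635418 to 62218847 in the siSCIRT table and 27989577 to 38955312 in the siEZH2 table. The fewest reads of a member in any library were 6, 76 and 14 in these tables. The line's markers VIM, CD44, AXL and ZEB1 were present and SPARC was low in the culture table, whereas TWIST1 was at 0 or not listed, as was the blood marker CD3E. The 4 fibroblast genes summed to 7.43 to 7.92 RPM in adherent cells, 101 to 103 at 16 h and 10.2 to 13.5 at 5 d, and mitochondrial reads to 6.83 to 6.89%, 8.55 to 8.56% and 9.65 to 9.74%. Most of the fibroblast sum at 16 h was DCN, with 999 to 1014 normalized counts, while COL1A2 had 0 to 2.44 in every culture library. COL1A1 had 10.6 to 14.6 in adherent cells, 52.5 to 67.2 at 16 h and 43.5 to 46.2 at 5 d, and PDGFRB had 54.3 to 56.0, 22.4 to 29.3 and 43.1 to 73.5. Their part in the culture results was not tested. EZH2, the target of siEZH2, had 275 and 278 with siEZH2 against 518 and 529 with siNC (-0.92 ± 0.15, adjusted p = 6.28e-08), and changed by -0.53 ± 0.08 and -0.50 ± 0.08 with siSCIRT 1 and 2. SCIRT, listed as RP5-1120P11.1, had 256 to 287 normalized counts with siNC, 112 to 127 with siSCIRT 1 and 105 to 159 with siSCIRT 2 (-1.16 ± 0.16 and -1.10 ± 0.16), and changed by -0.37 ± 0.18 with siEZH2 (adjusted p = 0.239).

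Values given per library are the authors' normalized counts. Changes are log2 fold changes ± SE from limma on log2(normalized count + 1), which understates the change of low genes, and adjusted p-values are Benjamini-Hochberg over all genes tested. A gene is said to have risen or fallen when its adjusted p was under 0.05.

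Spheres at 16 h had less RNA of most of these genes than adherent cells. Of the 42, 34 fell and 1 rose, where 26.5% of the 13789 genes tested fell and 27.4% rose. The median change of the 42 was -0.86 (0.550 of the adherent level), against -0.01 over all genes. A fall of at least 2-fold was called for 19, against 8.6% of all genes, and both 16 h libraries were below both adherent ones in 36, against 38.6% of all genes. Falls were called for 9 of 11 inner kinetochore genes, all 3 of the loading genes, 14 of 16 outer kinetochore genes, 3 of 4 cohesion and passenger genes and 5 of 8 spindle and cytokinesis genes. At 5 d, 28 fell and 1 rose, where 28.9% and 26.3% of all genes did, and the median was -0.75. The fall was at least 2-fold for 15, against 6.95% of all genes, and the groups were separate in that direction for 33, against 39.9%. The 16 h and 5 d comparisons share the adherent libraries. Without the trend in the variance prior, 0 members rose at 16 h and 2 at 5 d, and 2 rose at 5 d without the second 5 d library.

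**Figure D3:**
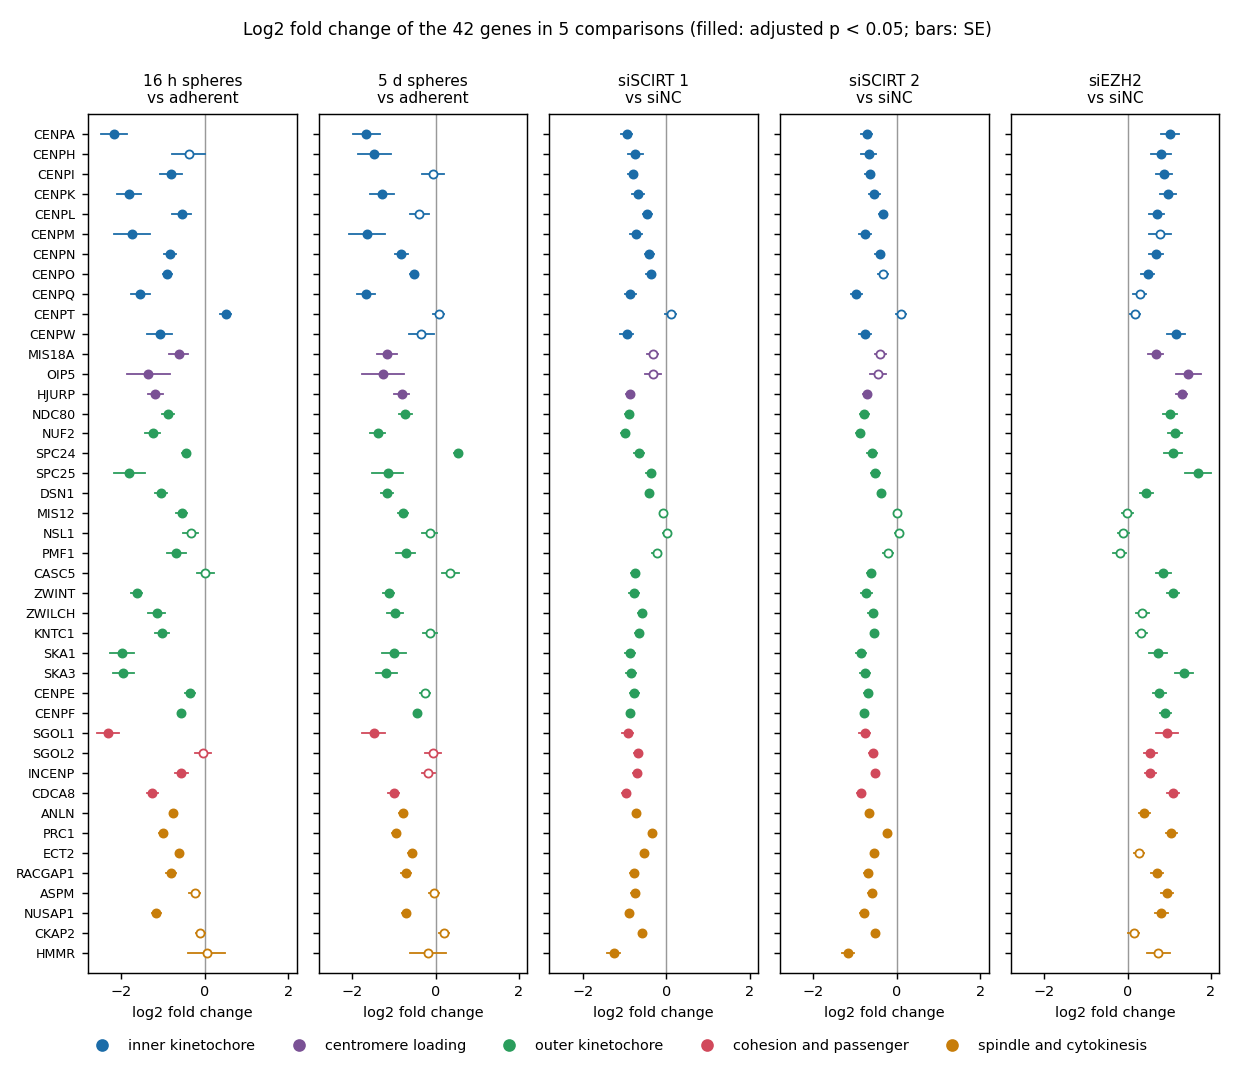
Log2 fold change (horizontal axis) of each of the 42 genes in 5 comparisons, with bars for the SE, filled points for an adjusted p under 0.05 and colours for the role. Filled points lie left of 0 for 34 genes at 16 h, 28 at 5 d, 36 with siSCIRT 1 and 35 with siSCIRT 2, and right of 0 for 31 with siEZH2.

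In the inner kinetochore, CENPA itself had 108 and 122 in adherent cells, 30.9 and 19.5 at 16 h and 51.8 and 24.6 at 5 d. All 4 sphere libraries were below both adherent ones. CENPA changed by -2.18 ± 0.32 at 16 h (adjusted p = 3.22e-07) and -1.66 ± 0.32 at 5 d (adjusted p = 3.4e-05). Exons of SLC35F6, on the same strand, overlap those of CENPA, and SLC35F6 changed by -0.62 ± 0.10 and -0.71 ± 0.10. With siSCIRT 1, siSCIRT 2 and siEZH2, SLC35F6 changed by 0.03 ± 0.07, -0.04 ± 0.07 and 0.04 ± 0.13. CENPK, of the CENP-H/I/K/M subcomplex, had 98.1 and 113 in adherent cells, 33.0 and 25.6 at 16 h and 48.7 and 37.0 at 5 d, again without overlap between adherent cells and spheres. It fell by 1.82 at 16 h and by 1.29 at 5 d on the log2 scale. CENPQ and CENPO belong to the CENP-O/P/Q/U/R subcomplex. CENPQ had 208 and 200.3 in adherent cells, 90.6 and 52.5 at 16 h and 61.1 and 66.2 at 5 d (-1.55 ± 0.22 and -1.67 ± 0.22). The 5 d values of CENPQ lay between those at 16 h. CENPO had 553 and 516 in adherent cells, 289 and 282 at 16 h and 365 and 384 at 5 d, with the 5 d libraries between the other groups (-0.90 ± 0.10 and -0.51 ± 0.10). Exons of ADCY3 and PTRHD1, on the opposite strand, overlap those of CENPO. ADCY3 changed by -1.48 ± 0.14 and -1.08 ± 0.14, and PTRHD1 by -0.12 ± 0.10 and 0.35 ± 0.10. CENPM and CENPN fell in both comparisons, by 1.74 and 0.84 at 16 h and by 1.65 and 0.82 at 5 d. CENPI, CENPL and CENPW fell at 16 h (-0.81 ± 0.26, -0.56 ± 0.23 and -1.09 ± 0.29) but were not called at 5 d (-0.06 ± 0.26, -0.39 ± 0.23 and -0.34 ± 0.29).

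CENPT, which anchors NDC80 complexes to the inner kinetochore together with CENPW, rose at 16 h. It had 207 and 231 in adherent cells, 299.5 and 318 at 16 h and 196 and 269.6 at 5 d, so that both 16 h libraries were above all others, and changed by 0.49 ± 0.14 (adjusted p = 0.00277) at 16 h and 0.07 ± 0.14 (adjusted p = 0.690) at 5 d. The library kit does not mark the strand. Exons of 3 genes on the opposite strand overlap exons of CENPT. Of these, THAP11 changed by 0.45 ± 0.11 at 16 h and by -0.87 ± 0.11 at 5 d. NUTF2 fell at both times (-0.36 ± 0.05 and -0.13 ± 0.05), and TSNAXIP1 was called at neither (0.19 ± 0.30 and 0.31 ± 0.30). THAP11 had 424 and 363 in adherent cells, 557 and 514 at 16 h and 204 and 225 at 5 d. Reads from CENPT and from any of these 3 genes cannot be told apart where they overlap.

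The 3 genes that place new CENPA fell at both times. HJURP, the chaperone of CENPA, had 268 and 233 in adherent cells, 139.6 and 85.5 at 16 h and 142 and 142 at 5 d, all sphere libraries being below both adherent ones (-1.19 ± 0.18, adjusted p = 8.97e-07, and -0.81 ± 0.18, adjusted p = 0.000264). MIS18A and OIP5 form the Mis18 complex that licenses loading. MIS18A had 129 and 125 in adherent cells, 74.6 and 89.2 at 16 h and 70.4 and 44.7 at 5 d (-0.63 ± 0.23 and -1.16 ± 0.23). OIP5 had 36.2 and 31.1 in adherent cells, 16.0 and 9.77 at 16 h and 6.21 and 27.7 at 5 d, with 5 d libraries that differ widely (-1.35 ± 0.51 and -1.26 ± 0.51). Its antisense neighbour OIP5-AS1, whose exons overlap it, moved the other way (0.34 ± 0.08 and 0.43 ± 0.08).

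Among outer kinetochore genes, the smallest adjusted p belonged to ZWINT, a partner of the scaffold CASC5 (also called KNL1). ZWINT had 476 and 447 in adherent cells, 135 and 161 at 16 h and 240.2 and 185 at 5 d, 3 separate levels with the spheres below the adherent cells. Its changes were -1.64 ± 0.14 (adjusted p = 7.84e-13) at 16 h and -1.13 ± 0.14 (adjusted p = 9.18e-09) at 5 d. CENPF, a large protein of the outermost layer, had 1705 and 1563 in adherent cells, 1103 and 1074 at 16 h and 1189 and 1194 at 5 d (-0.58 ± 0.06, adjusted p = 4.54e-11, and -0.45 ± 0.06, adjusted p = 2.01e-08). DSN1, of the MIS12 complex that joins the inner to the outer kinetochore, had 343 and 342 in adherent cells, 179 and 151 at 16 h and 148 and 157 at 5 d (-1.05 ± 0.14 and -1.16 ± 0.14). Of the other MIS12 complex genes, MIS12 changed by -0.56 ± 0.12 and -0.77 ± 0.12 and PMF1 by -0.68 ± 0.22 and -0.72 ± 0.22, all called as falls, while NSL1 was not called (-0.34 ± 0.18 and -0.15 ± 0.18).

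Within the NDC80 complex, NUF2 had 248 and 258 in adherent cells, 91.7 and 122 at 16 h and 105 and 87.8 at 5 d and fell by 1.25 and 1.39. NDC80 fell by 0.89 and 0.72, and SPC25 by 1.81 and 1.15. SPC24, bound to SPC25 in the same complex, went a different way. It had 463 and 387 in adherent cells, 318 and 303 at 16 h and 616 and 612 at 5 d, below adherent cells at 16 h and above them at 5 d without overlap. Its changes were -0.45 ± 0.10 (adjusted p = 0.000246) and 0.54 ± 0.10 (adjusted p = 1.98e-05), and it was the single member that rose at 5 d. SPC24 is 1 of 16 members with an exon that overlaps an exon on the opposite strand, where reads cannot be assigned to a strand. Overlaps on the same strand were found for 4 members, CENPA, NUSAP1, PMF1 and PRC1.

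SKA1 and SKA3, of a complex that follows shrinking microtubules, had the deepest falls of this group at 16 h. SKA1 had 98.1 and 98.6 in adherent cells, 29.8 and 19.5 at 16 h and 54.9 and 43.1 at 5 d (-1.98 ± 0.29 and -1.001 ± 0.29). SKA3 had 153 and 144 in adherent cells, 50.1 and 28.1 at 16 h and 64.2 and 66.2 at 5 d (-1.96 ± 0.25 and -1.18 ± 0.25). For both genes the 5 d values lay between those of 16 h spheres and adherent cells. ZWILCH and KNTC1 (ROD) recruit dynein and checkpoint proteins. ZWILCH fell in both comparisons (by 1.16 and 0.97), whereas KNTC1 fell at 16 h (-1.03 ± 0.17) and was not called at 5 d (-0.13 ± 0.17). The kinesin CENPE fell at 16 h (-0.35 ± 0.12) but was not called at 5 d (-0.25 ± 0.12). CASC5 was called at neither time (0.01 ± 0.21 and 0.35 ± 0.21).

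SGOL1, the shugoshin that guards centromeric cohesion, had the largest fall of all 42 at 16 h. It had 131 and 122 in adherent cells, 24.5 and 24.4 at 16 h and 47.6 and 41.6 at 5 d, and changed by -2.32 ± 0.27 (adjusted p = 2.8e-09) at 16 h and -1.48 ± 0.27 (adjusted p = 1.61e-05) at 5 d. SGOL2, its relative, had 134 and 106 in adherent cells, 102 and 129 at 16 h and 125 and 103 at 5 d with full overlap and was not called (-0.05 ± 0.20 and -0.06 ± 0.20). CDCA8 (borealin), which targets the passenger complex to centromeres, had 399.9 and 417 in adherent cells, 181 and 159 at 16 h and 184 and 223 at 5 d (-1.26 ± 0.13, adjusted p = 2.68e-10, and -1.01 ± 0.13, adjusted p = 5.22e-08). INCENP, the scaffold of that complex, had 201 and 199.7 in adherent cells, 135 and 134 at 16 h and 172 and 182 at 5 d. The 3 levels of INCENP did not overlap, with a fall at 16 h (-0.57 ± 0.15, adjusted p = 0.00212) and a change at 5 d that was not called (-0.18 ± 0.15, adjusted p = 0.338).

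Of the spindle and cytokinesis genes, NUSAP1, which bundles microtubules near chromosomes, had 553 and 595 in adherent cells, 255 and 255 at 16 h and 347 and 354 at 5 d (-1.17 ± 0.10, adjusted p = 2.42e-12, and -0.71 ± 0.10, adjusted p = 2.85e-07). PRC1, which crosslinks the antiparallel microtubules of the midzone, had 789 and 742 in adherent cells, 417 and 347 at 16 h and 411 and 387 at 5 d (-1.01 ± 0.10, adjusted p = 1.68e-11, and -0.94 ± 0.10, adjusted p = 1.17e-10). ANLN, the anillin of the contractile ring, had 906 and 897 in adherent cells, 498 and 570.4 at 16 h and 522 and 525 at 5 d (-0.76 ± 0.08 and -0.78 ± 0.08). In these genes every sphere library was below both adherent ones. ECT2, the exchange factor that switches on RhoA at the midzone, changed by -0.61 ± 0.08 and -0.57 ± 0.08, and its partner RACGAP1 by -0.81 ± 0.12 and -0.72 ± 0.12. The remaining 3 were called at neither time. ASPM, of the spindle poles, had 316 and 271 in adherent cells, 274 and 222 at 16 h and 301 and 269.6 at 5 d. CKAP2, a microtubule stabilizer, had 341 and 368 in adherent cells, 343 and 314 at 16 h and 439.9 and 377 at 5 d. HMMR, a spindle protein also known as a hyaluronan receptor, had 20.4 and 18.9 in adherent cells, 25.6 and 15.9 at 16 h and 17.6 and 16.9 at 5 d. Adherent and sphere values of HMMR overlapped at 16 h, and at these low counts its SE was 0.43.

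**Figure D4:**
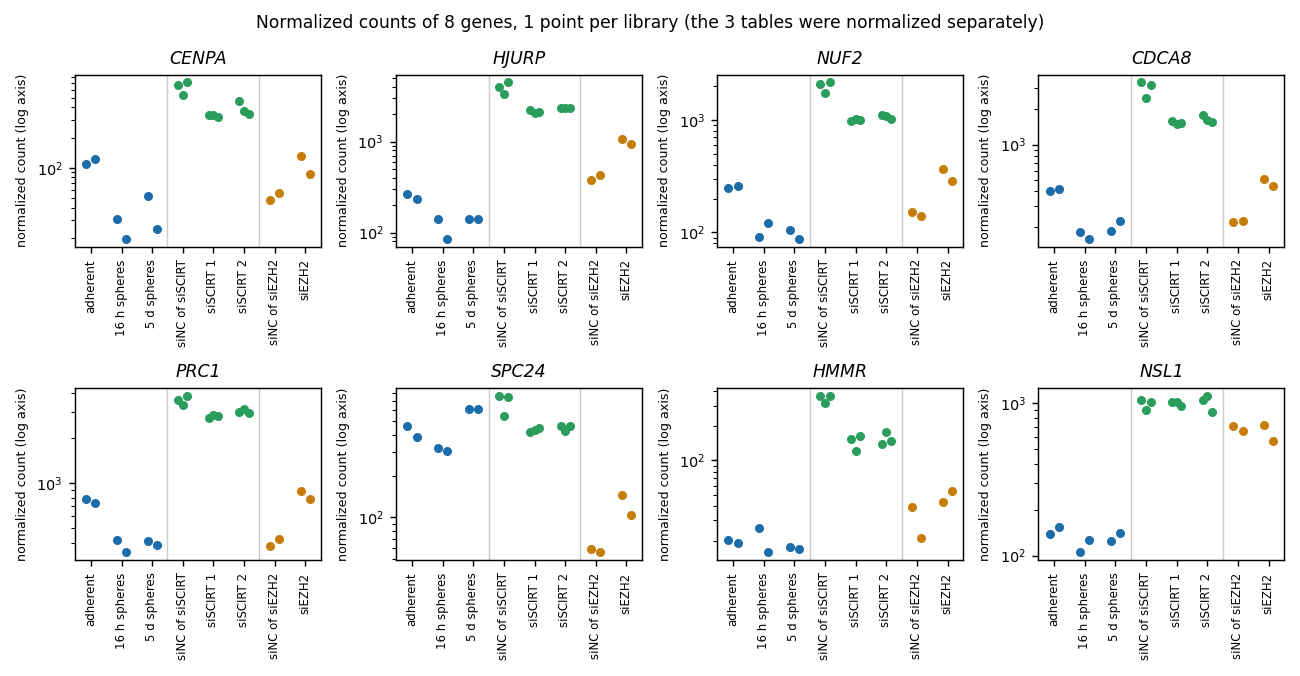
Normalized counts (vertical log axis) of 8 genes in each library (points), grouped along the horizontal axis. Blue, green and orange mark the culture, siSCIRT and siEZH2 tables, which were normalized separately, so levels are not comparable across them. CENPA, HJURP, NUF2, CDCA8 and PRC1 fall in spheres and with siSCIRT and rise with siEZH2, SPC24 is highest at 5 d within culture, HMMR falls with both siSCIRT siRNAs, and NSL1 was called in none of the comparisons with adherent cells or siNC.

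Between 16 h and 5 d, 12 of the 42 genes rose and 2 fell, where 22.8% of all genes rose and 25.5% fell. The median change was 0.18. The rises were spread over all roles but the loading genes: CENPI, CENPO and CENPW of the inner kinetochore, SPC24, ZWINT, KNTC1, SKA1 and SKA3 of the outer kinetochore, SGOL1 and INCENP, and NUSAP1 and CKAP2 of the spindle. CENPO changed by 0.39 ± 0.10, beside 0.39 ± 0.14 for ADCY3 and 0.47 ± 0.10 for PTRHD1. KNTC1 had 189 and 177 in adherent cells, 95.9 and 83.1 at 16 h and 166 and 169 at 5 d, back near the adherent level (0.90 ± 0.17, adjusted p = 3.98e-05). CENPI had 65.7 and 110.2 in adherent cells, 40.5 and 57.4 at 16 h and 84.9 and 78.6 at 5 d (0.75 ± 0.26, adjusted p = 0.0165). SPC24 and SKA1 had the largest rises, 0.98 ± 0.10 and 0.98 ± 0.29. The falls were those of CENPH, with 32.4 and 41.4 in adherent cells, 28.8 and 26.9 at 16 h and 9.32 and 16.9 at 5 d (-1.08 ± 0.40, adjusted p = 0.0242), and of CENPT (-0.42 ± 0.14, adjusted p = 0.0112), beside -1.32 ± 0.11 for THAP11. NUTF2 and TSNAXIP1, which also overlap CENPT, changed by 0.23 ± 0.05 and 0.12 ± 0.30. Rises numbered 7 without the second 16 h library and also 7 without the first 5 d library. Falls numbered 1 without the first 16 h library or the first 5 d library, and 0 without the second 16 h library.

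Spheres given either siSCIRT siRNA had less RNA of most of these genes than their controls. With siSCIRT 1, 36 of the 42 fell, where 5.56% of 16607 genes fell, and with siSCIRT 2, 35 fell, where 5.05% did. The median changes were -0.73 (0.603 of the control) and -0.61 (0.655), against 0.01 over all genes for either siRNA. No member rose with either (0 by limma, edgeR and DESeq2, and 0 at an unadjusted p under 0.05), where 4.63% and 4.49% of all genes did. Every siSCIRT 1 library was below every control in 37 members, against 14.5% of all genes, and every siSCIRT 2 library in 38, against 13.6%. Both comparisons use the same 3 siNC libraries. Taken as the mean of both siRNAs, 37 fell and 0 rose (0 by edgeR, by DESeq2 and at an unadjusted p under 0.05), against 7.58% and 6.82% of all genes, with a median of -0.68. The siRNAs were also compared with each other. There, 0 members and 0% of all genes were called by limma, 1 member was lower with siSCIRT 1 at an unadjusted p under 0.05, and edgeR and DESeq2 called 0 members. The differences between them ranged from -0.22 (CENPA) to 0.14 (SPC25). By role, siSCIRT 1 and siSCIRT 2 called 10 and 9 of 11 inner kinetochore genes, 1 and 1 of 3 loading genes, and 13 and 13 of 16 outer kinetochore genes.

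A fall of at least 2-fold was called with each siRNA for 1 member, HMMR, against 0.223% and 0.187% of all genes. HMMR had 367, 318 and 366 in controls, 154, 122 and 163 under siSCIRT 1 and 140.4, 177 and 148 under siSCIRT 2, every siSCIRT library being below every control. It changed by -1.26 ± 0.15 (adjusted p = 8.95e-05) and -1.18 ± 0.15 (adjusted p = 0.000221). In the NDC80 complex, NUF2 had 2100.2, 1735 and 2157 in controls, 980.2, 1017 and 989.6 under siSCIRT 1 and 1104, 1092 and 1017 under siSCIRT 2 (-0.998 ± 0.09, adjusted p = 1.06e-05, and -0.89 ± 0.09, adjusted p = 3.44e-05). NDC80 had 2429, 2084 and 2846 in controls, 1370.0, 1319 and 1258 under siSCIRT 1 and 1331, 1517 and 1417 under siSCIRT 2 (-0.89 ± 0.10 and -0.78 ± 0.10). Neither gene's siSCIRT values overlapped the controls. SPC24 changed by -0.66 ± 0.12 and -0.59 ± 0.12 and SPC25 by -0.37 ± 0.11 and -0.51 ± 0.11. CENPF had 13477, 12427 and 15599 in controls, 7243, 7791 and 7714 under siSCIRT 1 and 7533, 8383 and 8223 under siSCIRT 2 (-0.86 ± 0.08, adjusted p = 1.45e-05, and -0.78 ± 0.08, adjusted p = 4.79e-05). The other called outer kinetochore genes, ZWINT, ZWILCH, KNTC1, CASC5, SKA1, SKA3, CENPE and DSN1, changed by -0.87 (SKA1) to -0.40 (DSN1) with siSCIRT 1 and by -0.86 (SKA1) to -0.38 (DSN1) with siSCIRT 2.

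Of the loading genes, HJURP had 3929, 3296 and 4475 in controls, 2211, 2035 and 2087 under siSCIRT 1 and 2358, 2338 and 2363 under siSCIRT 2 (-0.87 ± 0.09, adjusted p = 3.02e-05, and -0.72 ± 0.09, adjusted p = 0.000211). MIS18A and OIP5 were called with neither siRNA (-0.33 ± 0.13 and -0.39 ± 0.13, and -0.31 ± 0.19 and -0.45 ± 0.19), though MIS18A passed for the mean of both (-0.36 ± 0.11, adjusted p = 0.0385). In the inner kinetochore, CENPA fell by 0.94 and 0.72. CENPI, which helps to hold the network together, had 993, 954 and 1002 in controls, 567, 532 and 586 under siSCIRT 1 and 529.6, 694 and 665 under siSCIRT 2 (-0.81 ± 0.10, adjusted p = 0.000145, and -0.65 ± 0.10, adjusted p = 0.000909). CENPQ and CENPW fell by 0.86 and 0.94 with siSCIRT 1 and by 0.98 and 0.76 with siSCIRT 2. CENPH, CENPK, CENPL, CENPM and CENPN were called with both, at -0.74 (CENPH) to -0.41 (CENPN) and at -0.76 (CENPM) to -0.33 (CENPL). CENPO was called with siSCIRT 1 (-0.37 ± 0.11, adjusted p = 0.0433, against -0.33 ± 0.11, adjusted p = 0.0731), and the difference between the siRNAs was not called (-0.04 ± 0.11, adjusted p = 1). ADCY3 was at -0.34 ± 0.12 and -0.25 ± 0.12, and PTRHD1 at 0.19 ± 0.13 and 0.08 ± 0.13.

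All 4 cohesion and passenger genes fell with both siRNAs. CDCA8 had 3369, 2487 and 3213 in controls, 1572, 1494 and 1527 under siSCIRT 1 and 1778, 1608 and 1546 under siSCIRT 2 (-0.97 ± 0.10, adjusted p = 2.98e-05, and -0.87 ± 0.10, adjusted p = 0.000104). SGOL1 and SGOL2 changed by -0.93 ± 0.13 and -0.68 ± 0.10 with siSCIRT 1, and INCENP by -0.71 ± 0.09. All 8 spindle and cytokinesis genes fell too. NUSAP1 had 4749, 4049.9 and 5366 in controls, 2474, 2624 and 2516 under siSCIRT 1 and 2745, 2625 and 2779 under siSCIRT 2 (-0.89 ± 0.09, adjusted p = 2.06e-05, and -0.79 ± 0.09, adjusted p = 7.42e-05). ANLN had 6736, 6094 and 7746 in controls, 4186, 4074 and 4080.0 under siSCIRT 1 and 4274, 4342 and 4333 under siSCIRT 2 (-0.73 ± 0.08 and -0.66 ± 0.08). In both genes the lowest control was above the highest siSCIRT library. ECT2 had 5871, 5618 and 6135 in controls, 3966, 4024 and 4136 under siSCIRT 1 and 4013, 4138 and 3897 under siSCIRT 2 (-0.54 ± 0.06 and -0.55 ± 0.06). RACGAP1 had 4106, 3431 and 4812 in controls, 2392, 2457 and 2336 under siSCIRT 1 and 2508, 2559 and 2501 under siSCIRT 2 (-0.77 ± 0.09 and -0.69 ± 0.09). ASPM, which was not called in the culture comparisons, had 5125, 4836 and 5321 in controls, 2789, 3039 and 3284 under siSCIRT 1 and 3209.6, 3988 and 3028 under siSCIRT 2 (-0.75 ± 0.09 and -0.59 ± 0.09), with all siSCIRT values below the controls. CKAP2 fell by 0.58 and 0.53, and PRC1, the least changed of the 8, by 0.35 and 0.25.

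Spheres given siEZH2 had more RNA of most of these genes than their siNC controls. Of the 42, 31 rose, where 3.9% of 15823 genes rose, and 12 rose at least 2-fold, where 0.588% did. Both siEZH2 libraries were above both controls in 37, against 25.3% of all genes. The median change was 0.77 (1.71 times the control), against 0.01 over all genes. No member fell (0 by limma, edgeR and DESeq2, and 0 at an unadjusted p under 0.05), where 2.94% of all genes did. Rises were called for 8 of 11 inner kinetochore genes, all 3 loading genes, 11 of 16 outer kinetochore genes, all 4 cohesion and passenger genes and 5 of 8 spindle and cytokinesis genes. The first siEZH2 library was above the second in 36 of the 42 genes, and the second was above both controls in 37. The rises numbered 19 without the first siEZH2 library, 20 without the second siNC library, 30 by edgeR, 19 by DESeq2 and 0 by limma without the trend in its variance prior, where 32 had an unadjusted p under 0.05.

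HJURP had the smallest adjusted p. It had 1065 and 934 with siEZH2 against 382 and 428 with siNC (1.30 ± 0.13, adjusted p = 9.38e-19). OIP5 had 52.3 and 47.9 with siEZH2 against 21.0 and 14.7 with siNC (1.46 ± 0.31, adjusted p = 0.000129), with OIP5-AS1 at -0.05 ± 0.12, and MIS18A rose by 0.68. For these 3 genes, both siEZH2 libraries were well above both controls. In the NDC80 complex, SPC25 had the largest change of the 42, from few reads, with 73.4 and 39.8 with siEZH2 against 13.4 and 19.3 with siNC (1.69 ± 0.31, adjusted p = 3.9e-06). NUF2 had 365 and 285 with siEZH2 against 152 and 140.4 with siNC (1.14 ± 0.17, adjusted p = 1.99e-09), and NDC80 had 309 and 219 with siEZH2 against 136 and 120.2 with siNC (1.02 ± 0.17, adjusted p = 6.08e-07). SPC24 rose by 1.08.

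ZWINT had 850.0 and 769.8 with siEZH2 against 399.6 and 362 with siNC (1.09 ± 0.14, adjusted p = 1.3e-12). CENPF had 1242 and 1028 with siEZH2 against 669 and 543 with siNC (0.91 ± 0.13, adjusted p = 8.9e-10). SKA3 had 142 and 125 with siEZH2 against 56.4 and 46.8 with siNC (1.36 ± 0.22, adjusted p = 5.76e-08). In each of these 3 outer kinetochore genes, the lower siEZH2 library exceeded the higher control. The other called ones, CENPE, CASC5, DSN1 and SKA1, changed by 0.45 (DSN1) to 0.86 (CASC5). CDCA8 had 508 and 444 with siEZH2 against 222 and 223 with siNC (1.09 ± 0.15, adjusted p = 1.76e-10), with nearly equal controls, and SGOL1, SGOL2 and INCENP changed by 0.54 (SGOL2) to 0.95 (SGOL1). CENPW had 134 and 101 with siEZH2 against 50.7 and 52.3 with siNC (1.17 ± 0.22, adjusted p = 1.14e-05), and CENPA had 129 and 86.8 with siEZH2 against 47.8 and 56.0 with siNC (1.02 ± 0.22, adjusted p = 0.000277). Neither of these inner kinetochore genes overlapped between groups. The other called ones, CENPH, CENPI, CENPK, CENPL, CENPN and CENPO, changed by 0.48 (CENPO) to 0.96 (CENPK). ADCY3 was at 0.36 ± 0.18 and PTRHD1 at -0.36 ± 0.14.

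On the spindle, PRC1 had 889 and 783 with siEZH2 against 382 and 425 with siNC (1.05 ± 0.14, adjusted p = 6.02e-12). ASPM had 865 and 602 with siEZH2 against 387 and 365 with siNC (0.94 ± 0.14, adjusted p = 2.67e-09), and NUSAP1 had 599 and 452 with siEZH2 against 307 and 285 with siNC (0.81 ± 0.15, adjusted p = 2.92e-06). All 3 genes separated the groups, and in each the first siEZH2 library was the highest. ANLN and RACGAP1 rose too (0.40 ± 0.13 and 0.71 ± 0.14). Members that fell with siSCIRT but were not called with siEZH2 numbered 7. They were CENPM (0.78 ± 0.27), CENPQ (0.29 ± 0.15), ZWILCH (0.35 ± 0.16), KNTC1 (0.33 ± 0.14), ECT2 (0.27 ± 0.12), CKAP2 (0.14 ± 0.13) and HMMR (0.74 ± 0.28).

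The difference between the responses was tested in 1 limma fit over both siRNA tables, each response taken against its own controls. The siEZH2 response exceeded the mean siSCIRT response in 38 of the 42 genes, where 8.51% of 15369 genes did, and fell short in 0, where 6.51% did (by the same fit, 0 also at an unadjusted p under 0.05). The median difference was 1.52, and 32 of the 38 were at least 2-fold, against 1.9% of all genes. It was largest in SKA3 (2.16 ± 0.19, adjusted p = 5.99e-08), SPC25 (2.13 ± 0.27), HJURP (2.096 ± 0.14, adjusted p = 3.9e-09) and NUF2 (2.08 ± 0.15). HMMR, not called with siEZH2, also differed (1.95 ± 0.29, adjusted p = 7.98e-05), as did CKAP2 (0.70 ± 0.14). Both a fall with the mean of the siSCIRT siRNAs and a rise with siEZH2 were called for 30 genes, which is 81.1% of those that fell with siSCIRT and 96.8% of those that rose with siEZH2. Of the falls at 16 h, 31 genes also fell with siSCIRT (91.2% of the former, 83.8% of the latter). All 3 changes were called in 26 genes. Of the 42 genes, 88.1% fell with the mean of the siSCIRT siRNAs, 81.0% fell at 16 h and 73.8% rose with siEZH2. Large overlaps follow from these shares alone, and the overlaps over all genes were not counted.

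**Figure D5:**
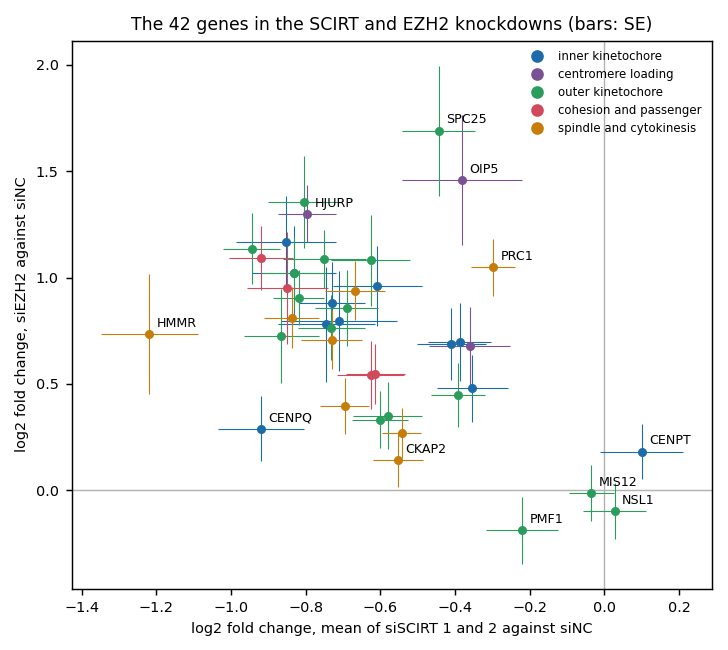
Log2 fold change with siEZH2 (vertical axis) against the mean log2 fold change with siSCIRT 1 and 2 (horizontal axis), 1 point per gene with SE bars, coloured by role. Most genes lie in the upper left, lower with siSCIRT and higher with siEZH2, and MIS12, NSL1, PMF1 and CENPT lie near the origin.

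The 4 genes whose difference was not called were CENPT, MIS12, NSL1 and PMF1. None of them was called with siSCIRT 1, siSCIRT 2 or siEZH2 either. MIS12 had 1855, 1953 and 1789 in controls, 1812, 1739 and 1732 under siSCIRT 1 and 1832, 1959.7 and 1856 under siSCIRT 2. Its values with siEZH2 and siNC were 801 and 683 and 761 and 732. The groups of MIS12 overlapped in the siEZH2 table, and its difference between the responses was 0.02 ± 0.12 (adjusted p = 0.931). NSL1 had 1046, 899.9 and 1013 in controls, 1014, 1011 and 958 under siSCIRT 1 and 1056, 1121 and 875 under siSCIRT 2, with overlap throughout, and a difference of -0.12 ± 0.16 (adjusted p = 0.657). PMF1 had 719, 597 and 697 in controls, 558, 636 and 526 under siSCIRT 1 and 649, 535 and 551 under siSCIRT 2 and a difference of 0.03 ± 0.17 (adjusted p = 0.929). CENPT had 1680.5, 1268 and 1666 in controls, 1693, 1609 and 1612 under siSCIRT 1 and 1849, 1308 and 1793 under siSCIRT 2 and a difference of 0.08 ± 0.18 (adjusted p = 0.808). In the siEZH2 table, PMF1 had 251 to 281 with siEZH2 against 284 to 324 with siNC, and CENPT had 996 to 1010 against 853 to 916. Both genes thus separated the groups there, in opposite directions, while NSL1 had 561 to 717 against 652 to 706, with overlap. DSN1, the fourth subunit of the MIS12 complex, was called with each siRNA (-0.40 ± 0.08, -0.38 ± 0.08 and 0.45 ± 0.15). An adjusted p above 0.05 does not show that the 4 genes did not respond, but the SE of their differences, 0.12 to 0.18, is small beside the median of 1.52. Exons of PMF1 overlap the readthrough gene PMF1-BGLAP, and those of MIS12 overlap DERL2 on the opposite strand. TTTGAA was in the window of 0 of the 4, beside 18.2% of all genes, and MIS12 and PMF1 held CCAAT. Of the 25 genes with a window that fell with siSCIRT and rose with siEZH2, 17 held TTTGAA (68%) and 8 did not, and 3 of these 8 held neither motif. With 4 windows on one side, these shares cannot be compared, and a link between motif and response was not tested.

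OIP5 and NUSAP1 lie head to head on chromosome 15, with starts 290 bases apart (GRCh38.p14, 41332591 on the minus strand and 41332881 on the plus strand). NUSAP1 fell with siSCIRT (-0.84 ± 0.07 for the mean of both) while OIP5 was not called (-0.38 ± 0.16, adjusted p = 0.131), and both rose with siEZH2.

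Other genes of the same machinery, from a list of names, were counted in the same way. Among all genes tested, 26.5% fell and 27.4% rose at 16 h. With siSCIRT 1 and 2, 5.56% and 5.05% of all genes fell, and with siEZH2 3.9% rose. Among 11 checkpoint and passenger genes such as the kinases AURKB, BUB1, TTK and PLK1, 10 fell and 1 rose at 16 h. With siSCIRT 1 and with siSCIRT 2, 9 fell and 0 rose, and with siEZH2, 10 rose and 0 fell. The gene that rose at 16 h was MAD1L1 (0.43 ± 0.08). Among 14 spindle and midzone genes, 13 fell and 1 rose at 16 h, all 14 fell with each siSCIRT and 12 rose with siEZH2. The smallest adjusted p-values over these lists and that of further centromere genes belonged at 16 h to SKA2 (-1.68 ± 0.10), MLF1IP, also called CENPU (-2.26 ± 0.14), TPX2 (-0.96 ± 0.06) and BUB1 (-1.77 ± 0.12). For the mean of both siSCIRT siRNAs they belonged to CEP55 (which fell by 1.00 ± 0.07), BUB1 (-0.97 ± 0.08), DLGAP5 (-0.91 ± 0.07) and AURKA (-0.92 ± 0.07), and with siEZH2 to TPX2 (1.23 ± 0.13), KIF20A (1.37 ± 0.14), KIF4A (1.43 ± 0.15) and CIT (1.27 ± 0.14). Of 11 further centromere genes, 6 fell and 1 rose at 16 h, with each siSCIRT 3 fell and with siEZH2 1 rose, namely MLF1IP, at 1.19 ± 0.15. CENPC, the platform of the inner kinetochore, was called neither at 16 h nor with siSCIRT or siEZH2 (0.05 ± 0.19, -0.21 ± 0.07 and -0.09 ± 0.14). Of 8 general proliferation genes, 7 fell at 16 h, all 8 fell with each siSCIRT and all 8 rose with siEZH2. MYBL2 and FOXM1 changed by -2.15 ± 0.22 and -1.57 ± 0.10 at 16 h, by -0.86 ± 0.10 and -0.76 ± 0.09 with siSCIRT, and by 1.03 ± 0.17 and 0.92 ± 0.15 with siEZH2.

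Transcript length was compared with the size of the changes, as a description across genes that are not independent. Over the 42 genes, Spearman's rho between the longest coding transcript and the log2 fold change was 0.41 at 16 h and 0.54 at 5 d, so that longer transcripts fell less. Over all genes with a length, rho was 0.09 and 0.22. It was 0.04 over the members with the mean of both siSCIRT siRNAs and -0.25 with siEZH2. Across the 42 genes, Pearson's r between changes was 0.34 for 16 h and siSCIRT, -0.47 for 16 h and siEZH2, and -0.48 for siSCIRT and siEZH2.

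Over the 6 culture libraries, the genes outside the list whose levels followed the members' mean most closely were RANBP9, ATP6V0D2, KIF15, DBF4B and RHNO1, each with Pearson's r of 1.00 to 2 decimals. Of the 42 members, 23 had r above 0.9 with that mean, as had 9.8% of all genes. The mean was built from the members themselves, so their share cannot be set against that of all genes. CENPT had the lowest value, -0.69, and CASC5 -0.26. With 6 libraries in 3 groups, such values mainly describe the group levels.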

How the data were processed

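Gene expression was measured by RNA-seq in 19 libraries of 8 groups, with a kit (TruSeq v2) that does not mark strand. CASAVA 1.4, TopHat2, Partek and the build hg19 appear in the submitters' processing notes, their roles unstated, and the counting program is not given in the sources used here. The culture and siSCIRT tables hold the authors' deposited log2 values, which are DESeq2 variance-stabilized counts per the labels and the values. The siEZH2 table holds deposited normalized counts on a linear scale, a signal per gene. The log2 values were inverted to normalized counts, and in all 3 tables whole reads were recovered for 100% of values (tolerance 0.05), so that the counts, normalized by the authors, also give the depth. Linear values had been assumed for all tables when the tests were chosen. The siSCIRT columns without a number were taken as siSCIRT 1, since those of the other siRNA carry its number.

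Genes with a mean of at least 10 normalized counts were tested with limma 3.58.1 (R 4.3.3) on log2(normalized count + 1), with trended, robust empirical Bayes, over all groups of a table and with Benjamini-Hochberg adjustment at 0.05. The difference of responses used 1 fit over both siRNA tables. The fits were repeated with a pseudocount of 8, without a filter, with a filter at 50, after quantile normalization, without the trend, with a replicate block, on the compared groups alone, by edgeR 4.0.16 and DESeq2 1.42.0 on the recovered reads, and without each library in turn. The test was tried on simulated data. Members, lists and tests were chosen with earlier results of these data known. Values in every library were given for 2 to 4 members per role with the smallest adjusted p in culture, for the 12 smallest per siRNA experiment and for members against the main direction, and further ones were chosen after their values were seen. Library depths are in the results, and their precision covers counting error only. Promoter windows are from RefSeq (GRCh38.p14), and exon overlaps and transcript lengths from GENCODE 29.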

Additional observations from a re-analysis of the deposited data

Results flagged for a closer look

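The response to siEZH2 and the mean response to both siSCIRT siRNAs, each against its own siNC controls, differed in 38 of the 42 genes by a test of the difference itself (limma over both tables, adjusted p under 0.05). The differences, siEZH2 response minus siSCIRT response on the log2 scale, were positive in all 38. For inner kinetochore genes they were CENPW (2.02), CENPA (1.85), CENPI (1.61), CENPK (1.57), CENPM (1.52), CENPH (1.51), CENPQ (1.21), CENPN (1.10), CENPL (1.09) and CENPO (0.83). For the loading genes they were HJURP (2.096), OIP5 (1.84) and MIS18A (1.04). In the outer kinetochore they were SKA3 (2.16), SPC25 (2.13), NUF2 (2.08), NDC80 (1.85), ZWINT (1.84), CENPF (1.72), SPC24 (1.71), SKA1 (1.59), CASC5 (1.55), CENPE (1.50), KNTC1 (0.93), ZWILCH (0.93) and DSN1 (0.84). For cohesion and passenger genes they were CDCA8 (2.01), SGOL1 (1.80), SGOL2 (1.17) and INCENP (1.16). For spindle and cytokinesis genes they were HMMR (1.95), NUSAP1 (1.65), ASPM (1.61), RACGAP1 (1.44), PRC1 (1.35), ANLN (1.09), ECT2 (0.81) and CKAP2 (0.70). The 2 experiments are separate tables, and their controls differ in the level of these genes as given in the results.

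Spheres at 16 h and at 5 d differed, by the same kind of test within the culture table, in 14 genes (12 higher and 2 lower at 5 d), where 22.8% of all genes were higher and 25.5% lower, so the count as such is not particular to these genes. The log2 change from 16 h to 5 d was positive in SPC24 (0.98), SKA1 (0.98), KNTC1 (0.90), SGOL1 (0.84), SKA3 (0.78), CENPW (0.75), CENPI (0.75), ZWINT (0.51), NUSAP1 (0.46), CENPO (0.39), INCENP (0.39) and CKAP2 (0.31). It was negative in CENPH (-1.08) and CENPT (-0.42). These are the differences between the 2 sphere times and do not involve the adherent libraries. Exons of CENPT overlap those of THAP11, which also fell from 16 h to 5 d, of NUTF2, which rose, and of TSNAXIP1, which was not called. Those of CENPO overlap ADCY3 and PTRHD1, which both rose as CENPO did, and SPC24 has an exon that overlaps one on the opposite strand too.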

How the results depend on the processing

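No gene that was called changed direction under any alternative run. Without the trend in limma's variance prior, the count of members that rose went from 1 to 0 at 16 h, from 1 to 2 at 5 d and from 31 to 0 with siEZH2, where the smallest adjusted p was 0.0652 and no gene of the whole table was called. The count that fell from 16 h to 5 d went from 2 to 1 without the trend, with only the compared groups and by DESeq2, and the siEZH2 rises went to 19 by DESeq2. The cause was not tested. Leaving out 1 library at a time gave 29 to 33 falls at 16 h, 25 to 27 falls and 1 to 2 rises at 5 d, 7 to 13 rises and 0 to 2 falls between the times, 31 to 36 falls with siSCIRT 1, 28 to 34 with siSCIRT 2, 19 to 32 rises with siEZH2 and 38 higher differences between the responses. Where 1 library remained in a group, it was assumed to vary like the others. The other alternatives kept each count within 1.5 times. With the replicate number as a block, 34 and 28 genes fell at 16 h and 5 d, 37 with siSCIRT 1 and 37 with siSCIRT 2, 23 rose with siEZH2 and 38 differed between the responses. The numbers do not pair the libraries by the labels. Deviations of same-numbered libraries correlated at 0.0208 to 0.299 in the siSCIRT table (5 of 9 libraries best with their own number), at -0.0854 in the siEZH2 table and at -0.00894 to 0.0185 in the culture table. With 2 libraries per group in the culture and siEZH2 tables, and as few as 6 and 14 reads for the lowest members, differences in low genes such as HMMR and OIP5 are poorly resolved.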
